A study of Mus musculus with 24 samples.

Results

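The 10 genes described here are 4 bone morphogenetic protein (BMP) ligands, Bmp2, Bmp4, Bmp7 and Gdf6, 2 secreted BMP antagonists, Nog and Chrd, and the 4 Id genes Id1, Id2, Id3 and Id4. They were taken by name and are 10 of the 21909 gene symbols in the RNAseq tables of mouse embryonic stem cells (ESCs) and of neural progenitor cells (NPCs) made from them. The study mapped nucleolus-associated domains (NADs), the stretches of the genome that touch the nucleolus, in both cell types and measured their RNA. RNAseq comprised 3 ESC and 3 NPC samples, and the labels give 3 independent culture dishes as the RNA source for each cell type.

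ESCs of the E14 line grew without feeder cells on gelatin in 2i medium with LIF at 1000 U/ml, the GSK3β inhibitor CHIR99021 at 3 µM and the MEK inhibitor PD0325901 at 1 µM. The labels and the study's methods write "either 2i media" but name no second medium for these cells. NPCs were derived from E14 cells as embryoid bodies in suspension over 8 days in a serum medium, with 2 µM retinoic acid in the last 4 days. The labels name no other agent for the RNAseq samples. The labels name no sequencing batch, and the values of each cell type stand in a table of their own, so a batch difference and the cell type cannot be told apart.

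Expression was deposited as RPKM (reads per kilobase of gene, scaled to the depth of the sample). Low values were whole multiples of what 1 read is worth when the length is the whole gene from first to last base, introns included, so whole reads could be recovered. By replicate number, the depth worked out in this way was 34051549, 33731415 and 30779549 reads for ESCs, and for NPCs it was 30150512, 27262206 and 32296750 reads. Span RPKM below stands for the deposited values, which compare 1 gene between samples. Exon RPKM stands for the same reads per kilobase of annotated exon, and levels of different genes were compared only on that scale. The study's methods speak of coverage of exons, which differs from the length that these values fit.

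ESC replicate 3 stood apart from the other ESC samples. Over the 7835 genes tested below, log2(span RPKM + 1) of ESC replicate 3 correlated with that of ESC replicates 1 and 2 at 0.963 and 0.966, against 0.999 between ESC replicates 1 and 2 and 0.996 to 0.999 among NPC samples (correlations across genes, which are not independent replicates). In ESC replicate 3, genes with an exon length of up to 2853 bases had a median log2 ratio of 0.43 to the mean of ESC replicates 1 and 2, and those with 6906 bases or more had -0.71. Results for the 10 genes are therefore also given without this sample.

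The labels were checked against marker genes. Pou5f1, the pluripotency factor Oct4, stood at 130, 136 and 202 span RPKM in ESC replicates 1, 2 and 3 and at 0.0558, 0.0386 and 0.0651 in the NPC replicates. Zfp42, another pluripotency gene, had 39.1 to 44.3 span RPKM in ESCs and at most 0.0195 in NPCs. Sox2, which both cell types use, had 142 to 157 span RPKM in ESCs and 6.82 to 9.91 in NPCs. All 8 pluripotency markers were called lower in NPCs, 6 of which passed the filter of the test (1 span RPKM in at least 3 samples) through ESCs alone and so had to differ, and their summed exon RPKM was 3736, 3718 and 7031 in the ESC samples and 11.9, 12.9 and 14.4 in the NPC samples.

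Of the neural progenitor list, 7 of 9 genes could be tested, of which 4 rose and 1, Sox2, fell. Pax6, Sox1 and Hes5, 3 of the 4 that rose, passed the filter through NPCs alone and so had to differ. Nes also rose, while Vim and Notch1 were not called (adjusted p = 0.204 and 0.150, limma). Pax6, a transcription factor of radial glia, had 1.55, 1.42 and 1.67 span RPKM in the NPC samples and at most 0.0167 in ESCs. Nes, which encodes the intermediate filament nestin, rose from 3.25 to 3.79 span RPKM in ESCs to 29.4 to 32.7 in NPCs. Tuba1a, an α-tubulin of neural cells that is a label check outside the list, had 40.5 to 59.9 span RPKM in ESCs and 106 to 118 in NPCs. The summed exon RPKM of the list was 235, 236 and 234 in ESCs, where Sox2 was its most abundant gene, and 157, 166 and 174 in NPCs, where Vim, a filament gene also of mesenchyme, was. Hes5 was at 0 in all ESC samples, and all 9 markers had at least 1 exon RPKM in every NPC sample.

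The NPC samples also carried RNA of genes that mark other cell types. Of the 8 mesoderm and mesenchyme markers, 6 were tested and all 6 rose, with a summed exon RPKM of 3.95, 4.22 and 3.46 in ESCs and 247, 259 and 254 in NPCs. Col3a1, a collagen of connective tissue, was the most abundant of them in NPCs at 79.2 exon RPKM. T and Mesp1, which mark early mesoderm, had at most 0.0573 exon RPKM in NPCs. T, not tested at this filter, had 0.964, 1.04 and 0.869 span RPKM in ESCs, where it was the most abundant gene of the list, and was lower in every NPC sample. Foxf1 was at 0 in all ESC samples.

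Of the 6 endoderm markers, 4 were tested and all 4 rose. Their summed exon RPKM was 0.820, 0.930 and 0.546 in ESCs and 147, 151 and 153 in NPCs, with Gata4 the most abundant at 110 exon RPKM in NPCs. Afp and Ttr, which mark visceral endoderm and liver, were at 0 in ESCs. In NPCs, Afp had 0.177, 0.120 and 0.0552 exon RPKM and Ttr 1.17, 1.08 and 1.23. The 5 markers of endothelium and blood summed to 19.5, 18.8 and 14.8 exon RPKM in ESCs, mostly Pecam1, and to 46.4, 45.6 and 48.5 in NPCs, where Kdr led at 14.9. Of these 5, Kdr and Hbb-bh1 were tested and both rose, and Hbb-bh1 was at 0 in ESCs. Pecam1, not tested at this filter, had 18.7, 18.1 and 14.4 exon RPKM in ESCs and less in every NPC sample, 7.67, 6.30 and 6.13, and the values of Gata1 overlapped. The tested genes of these 3 lists passed the filter through the NPC samples alone, so they had to differ. The part of these other cell types in the results below was not tested. In bulk RNA, more cells of a type and more RNA per cell cannot be told apart.

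BMPs are secreted dimers of the TGF-β superfamily that bind pairs of serine/threonine kinase receptors, which phosphorylate Smad1, Smad5 and Smad9; these join Smad4 in the nucleus. Id1, Id2 and Id3 are among the best-known targets, and Id proteins bind E proteins such as Tcf3, Tcf4 and Tcf12 and keep them from DNA. In the early embryo BMP signalling holds back neural fate, which antagonists such as noggin and chordin allow, and in ESC cultures BMP acts with LIF, through Id genes, on self-renewal.

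The first comparison asks how the 10 genes differ between ESCs and NPCs. All 4 ligands, Nog, Chrd, Id1, Id2 and Id3 had higher values in every NPC sample than in any ESC sample, although the Chrd difference did not pass the test, and Id4 was lower in every NPC sample. Such separation was common: of the 18360 genes above 0 in any sample, all NPC values lay above all ESC values in 45.5% and below them in 27.4%. Only 6 of the 10 genes, Bmp4, Bmp7 and the 4 Id genes, had at least 1 span RPKM in at least 3 samples and were tested with limma on log2(span RPKM + 1). All 6 were called at an adjusted p under 0.05, beside 70.2% of the 7835 genes tested. Of these, 5 were higher in NPCs, beside 36.9% of all genes tested, and 1 was lower, beside 33.3%. With a change of at least 2-fold in addition, 4 were higher and 1 lower, beside 16.6% and 12.1%. Bmp4 and Bmp7 passed the filter through the NPC samples alone and so had to differ, and no support is drawn from this count.

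An alternative chosen after seeing the data, limma voom on the recovered reads, tested all 10 genes and called 9, beside 74.0% of the 14657 genes with at least 10 reads in at least 3 samples. Of these 9, 8 were higher, beside 45.8% of all genes tested, and 1 was lower, beside 28.1%. Chrd was the gene not called. Bmp2, Gdf6 and Nog had under 10 reads in every ESC sample and passed this filter through the NPC samples alone, so they had to differ and their calls support nothing.

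**Figure D1:**
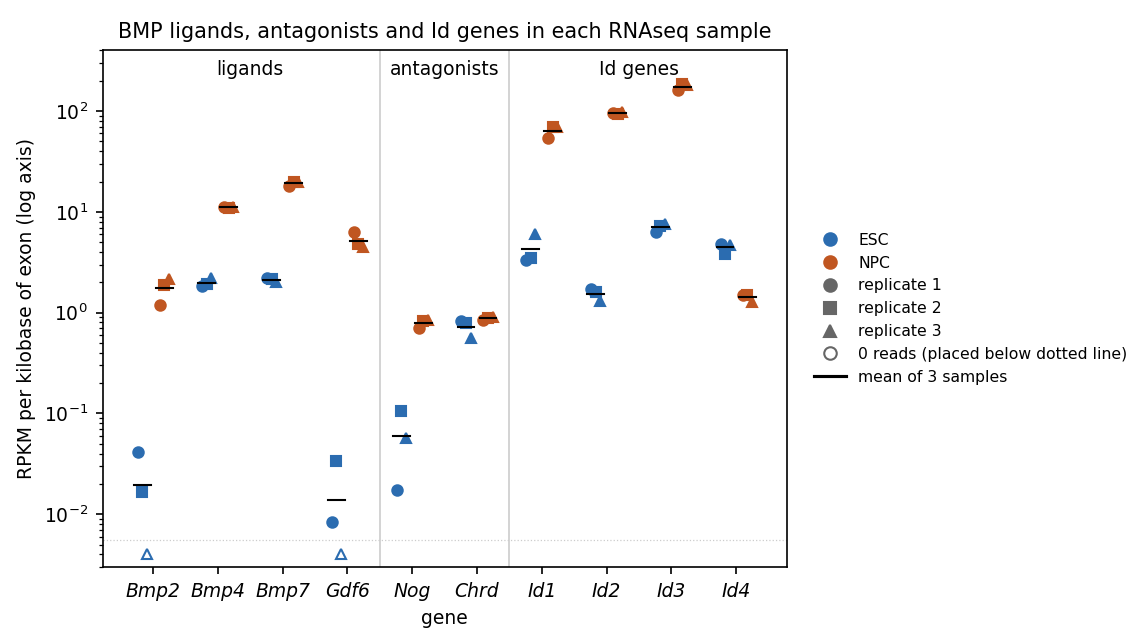
Exon RPKM (log axis) of the 10 genes in the 3 ESC samples (blue) and the 3 NPC samples (orange), with a marker shape for each replicate, black lines for means and open symbols below the dotted line for samples with 0 reads. Id1, Id2 and Id3 sit highest in NPCs, at 53.9 to 184 exon RPKM, and Bmp2 and Gdf6 have 0 reads in ESC replicate 3.

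Bmp4 (chr14:46383520-46390669, minus strand, GRCm38), a ligand of mesoderm and of the dorsal neural tube, had 0.575, 0.601 and 0.695 span RPKM in ESC replicates 1, 2 and 3 and 3.52, 3.46 and 3.50 in the NPC replicates. The 3 NPC samples were high and close together, and the groups did not overlap. The mean rose from 0.624 ± 0.0632 to 3.49 ± 0.0278 (SD, n = 3 each), 5.60-fold. The log2 fold change of RPKM + 1, a scale that understates changes of low genes, was 1.47, and 1.50 without ESC replicate 3. Since Bmp4 passed the filter on RPKM through NPCs alone, its test is that on reads, of which every sample had at least 140: a log2 fold change of 2.49 (limma voom, adjusted p = 3.89e-06, with 3.42e-09 to 0.000123 over the alternatives), and 2.57 without ESC replicate 3. It shares 1764 bases with the antisense gene Gm15222, which was not matched to the tables. The sources differ on whether the libraries kept the strand, so reads of an antisense gene cannot be told apart.

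Bmp7 (chr2:172868012-172940321, minus strand), a ligand needed for kidney and eye, had 0.121, 0.120 and 0.112 span RPKM in ESCs and 1.01, 1.10 and 1.11 in NPCs. These small values come from a long gene, and stand for 249 to 299 reads in ESC samples and 2163 to 2592 in NPC samples. Every NPC sample was above every ESC sample, by 9.11-fold in the means. The log2 fold change of RPKM + 1 was 0.89, with and without ESC replicate 3. The test is again that on reads, with a log2 fold change of 3.18 (limma voom, adjusted p = 1.21e-06, with 2.24e-10 to 5.64e-05 over the alternatives), and 3.15 without ESC replicate 3.

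Bmp2 (chr2:133552159-133562885, plus strand), a ligand of heart and bone formation, had 5, 2 and 0 reads in the ESC replicates and 129, 182 and 248 in the NPC replicates. That is 0.0137, 0.00553 and 0 span RPKM in ESCs and 0.399, 0.622 and 0.716 in NPCs. ESCs were near the limit of detection, where 3 reads correspond to between 0.00821 and 0.00909 span RPKM, and NPC replicate 1 was the lowest of the NPC samples. Over the summed reads, scaled to depth, NPCs were 87.7-fold higher (exact 95% interval 42.3 to 219, which covers counting error only). No test is given, since the gene passed the filter on reads only through the NPC samples. Fitted on reads, the log2 fold change was 6.71, but 5.79 without ESC replicate 3 and 7.45 without ESC replicate 1.

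Gdf6 (chr4:9844372-9862345, plus strand), a ligand of joints and retina, had 1, 4 and 0 reads in the ESC replicates and 674, 459 and 512 in the NPC replicates. The span RPKM were 0.00163, 0.00660 and 0 in ESCs and 1.24, 0.937 and 0.882 in NPCs. The count of 0 in ESC replicate 3 allows up to 0.00542 span RPKM (3 reads, counting error only). NPC replicate 1 was the highest here and the only sample above 1 span RPKM, which left the gene below the filter. The summed reads were 361-fold higher in NPCs (exact 95% interval 155 to 1115, counting error only). As for Bmp2, the filter on reads fixed the direction, and no test is given. The fitted log2 fold change on reads was 8.63, but 7.89 without ESC replicate 3 and 9.41 without ESC replicate 2.

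The summed exon RPKM of the 4 ligands, given without a test, was 4.06, 4.12 and 4.22 in the ESC samples and 36.9, 37.4 and 37.8 in the NPC samples. Bmp7 made up 51.2% ± 3.20 of this sum in ESCs and 51.6% ± 2.08 in NPCs (SD, n = 3 each). Bmp4 made up 47.9% ± 3.89 in ESCs and 29.8% ± 0.493 in NPCs. Gdf6 took 13.9% ± 2.83 in NPCs against 0.340% ± 0.424 in ESCs, and Bmp2 4.67% ± 1.27 against 0.474% ± 0.512. The share of Bmp7 thus overlapped between the cell types, while those of the other 3 ligands did not. In the same NPC samples the mesoderm and mesenchyme list and the endoderm list stood at the levels given above, and their part in the ligand levels was not tested.

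Among the antagonists, Nog (chr11:89300638-89302332, minus strand), which encodes noggin, had 1, 6 and 3 reads in the ESC replicates and 36, 38 and 46 in the NPC replicates. As span RPKM this was 0.0173, 0.105 and 0.0575 in ESCs and 0.705, 0.823 and 0.841 in NPCs. The groups did not overlap, but all 6 values rest on few reads. The summed reads were 13.2-fold higher in NPCs (exact 95% interval 6.93 to 28.2, counting error only). Nog too passed the filter on reads only through the NPC samples, and no test is given. Its fitted log2 fold change on reads was 3.78, and 3.18 without ESC replicate 1 and 3.88 without ESC replicate 3.

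Chrd (chr16:20733127-20742384, plus strand), which encodes chordin, had 0.558, 0.538 and 0.379 span RPKM in ESCs and 0.566, 0.598 and 0.615 in NPCs. ESC replicate 3 was the lowest value, and ESC replicates 1 and 2 lay just under the NPC samples. The ratio of means was 1.21, and 1.08 without ESC replicate 3. The difference did not pass the test on reads (log2 fold change 0.28, adjusted p = 0.197, limma voom; 0.0564 to 0.419 over the alternatives). Chrd shares 1385 bases with Thpo on the opposite strand, and Thpo had 0.445 to 0.653 span RPKM in ESCs and 0.0851 to 0.0993 in NPCs, so reads of that overlap may count for either gene. With Nog near 0, Chrd was 88.4% to 97.9% of the summed exon RPKM of both antagonists in ESCs and 51.8% to 54.3% in NPCs.

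In NPCs, Id3, Id2 and Id1 had the highest exon RPKM of the 10 genes. Id3 (chr4:136143497-136145755, plus strand), which acts with Id1 in the developing forebrain and its vessels, had 4.99, 5.71 and 6.00 span RPKM in the ESC replicates and 127, 146 and 143 in the NPC replicates. All NPC samples were far above all ESC samples, and ESC replicate 3 did not stand out. The means were 5.57 ± 0.518 and 139 ± 10.1 (SD, n = 3 each), a ratio of 24.9. The log2 fold change of RPKM + 1 was 4.41 (SE 0.11, adjusted p = 2.66e-07, limma), and 4.46 without ESC replicate 3.

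Id2 (chr12:25093799-25097140, minus strand), an Id gene known from neural crest and lymphoid cells, had 1.25, 1.16 and 0.943 span RPKM in ESCs and 70.5, 68.9 and 71.0 in NPCs. The NPC values lay close together (70.1 ± 1.05, SD, n = 3), far above the ESC values (1.12 ± 0.157), of which that of ESC replicate 3 was the lowest. Id2 had the largest ratio of means among the Id genes, 62.7, and a log2 fold change of 5.07 (SE 0.09, adjusted p = 1.86e-07, limma; 5.01 without ESC replicate 3).

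Id1 (chr2:152736251-152737410, plus strand), an Id gene of endothelium and adult neural stem cells, had 3.37, 3.53 and 6.08 span RPKM in ESCs and 53.9, 69.2 and 69.0 in NPCs. ESC replicate 3 was 1.76 times the mean of the other ESC samples, and NPC replicate 1 was the lowest NPC sample. The groups still lay far apart, with a ratio of means of 14.8, and 18.6 without ESC replicate 3. The log2 fold change was 3.64 (SE 0.22, adjusted p = 1.12e-05, limma), and 3.86 without that sample.

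Id4 (chr13:48261228-48266026, plus strand), an Id gene of neural precursors, went the other way. It had 3.89, 3.06 and 3.79 span RPKM in ESCs and 1.21, 1.20 and 1.03 in NPCs, so that every NPC sample was below every ESC sample. The mean in ESCs was 3.12 times that in NPCs. On the log2 scale of RPKM + 1 it fell by 1.09 (SE 0.09, adjusted p = 7.32e-05, limma), and by 1.06 without ESC replicate 3. On the opposite strand it shares 1396 bases with A330033J07Rik and 1364 with Gm49291, neither of which was matched to the tables. The pluripotency list fell in the same comparison, with the levels given above, and its part in the Id4 result was not tested.

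Summed over Id1 to Id4, the span RPKM were 13.5, 13.5 and 16.8 in the ESC samples and 253, 285 and 284 in the NPC samples, a log2 ratio of means of 4.23, given without a test. In exon RPKM the sums were 16.2, 16.1 and 19.7 in ESCs and 312, 349 and 348 in NPCs. The make-up of the sum also differed. Id4 was 29.9%, 23.6% and 24.0% of it in the ESC samples and 0.483%, 0.429% and 0.368% in the NPC samples. Id2 was 9.00% ± 2.12 in ESCs and 28.7% ± 2.03 in NPCs, and Id3 40.6% ± 3.46 and 51.9% ± 0.682 (SD, n = 3 each). Id1 had 20.8% to 30.9% in ESCs and 17.3% to 19.8% in NPCs. The summed levels of the mesoderm, endoderm and endothelium lists were high in the same 3 NPC samples, although T and Pecam1 of these lists were lower there, and their part in the Id levels was not tested.

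**Figure D2:**
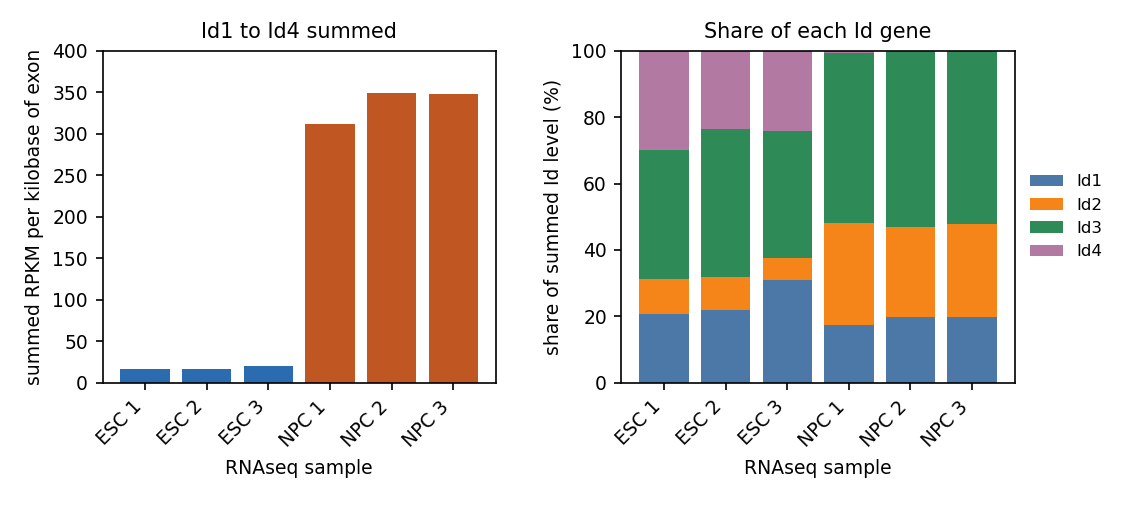
Left, summed exon RPKM of Id1, Id2, Id3 and Id4 in each of the 6 RNAseq samples; right, the share of each Id gene in that sum, in percent. The sum is 16.1 to 19.7 in ESC samples and 312 to 349 in NPC samples, and Id4 shrinks from at least 23.6% to at most 0.483%.

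In exon RPKM, the order of the means in ESCs was Id3 (7.02 ± 0.653), Id4 (4.46 ± 0.566), Id1 (4.32 ± 1.52), Bmp7 (2.12 ± 0.0917), Bmp4 (1.98 ± 0.201), Id2 (1.53 ± 0.215), Chrd (0.727 ± 0.145), Nog (0.0599 ± 0.0439), Bmp2 (0.0193 ± 0.0208) and Gdf6 (0.0140 ± 0.0175; SD, n = 3). The ranges over samples overlapped between Id4 and Id1, between Bmp7 and Bmp4, and between Nog, Bmp2 and Gdf6 as neighbours, so these orders do not exceed the spread. In NPCs the order was Id3 (175 ± 12.7), Id2 (96.1 ± 1.44), Id1 (64.0 ± 8.77), Bmp7 (19.3 ± 0.988), Bmp4 (11.1 ± 0.0885), Gdf6 (5.19 ± 0.992), Bmp2 (1.75 ± 0.491), Id4 (1.43 ± 0.129), Chrd (0.878 ± 0.0371) and Nog (0.789 ± 0.0738). Here the ranges overlapped only between Bmp2 and Id4 and between Chrd and Nog. Id2 thus stood in place 6 in ESCs and place 2 in NPCs. Among 21597 genes with an exon length, Id3, Id2 and Id1 held ranks 137, 301 and 528 in NPCs and 5703, 9356 and 7099 in ESCs.

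The wider pathway was described with 59 other genes in 7 roles, of which 23 passed the filter and all 23 were called, beside the 70.2% above. Of these, 19 were higher, beside 36.9% of all genes tested, and 4 lower, beside 33.3%. Without ESC replicate 3 each was called in the same direction, but with samples scaled to an equal sum of RPKM 21 were called, without Smad7 and Tbx3, 2 of the 4 lower ones. The median log2 fold change of RPKM + 1 of the 23 was 1.16, beside 0.02 over all genes tested. Of the 23, 11 had all ESC values and 1 all NPC values under 1 span RPKM, against 1345 and 553 of the 7835 genes tested. Such genes pass the filter only where they are high, which shifts the median, so nothing is read from its difference to that of all genes. On recovered reads, 51 could be tested, of which 43 were higher, beside 45.8% of all genes tested, and 6 lower, beside 28.1%. Of the 51, 15 had under 10 reads in every ESC sample, against 1537 of 14657.

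Of the 11 receptors and co-receptors, 6 were tested and called higher, beside 36.9% of all genes tested. But 4 of the 6 passed the filter through NPCs alone. Bambi, 1 of the other 2 and a pseudoreceptor that dampens BMP and TGF-β signals, rose most of the 6 on the log2 scale of RPKM + 1, from 1.19, 1.28 and 1.71 span RPKM in ESCs to 11.2, 12.2 and 11.0 in NPCs. Its log2 fold change was 2.38 (SE 0.11, adjusted p = 2.62e-06, limma). The groups of Bambi lay apart in all samples.

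Of the Smads and their regulators, 4 of 5 tested genes rose and 1 fell, beside 36.9% and 33.3% of all genes tested. Skil, a repressor of Smad-driven transcription, rose from 1.85, 1.73 and 0.960 span RPKM to 8.41, 8.01 and 8.53 (log2 fold change 1.91, SE 0.15, adjusted p = 4.74e-05, limma). Smad7, an inhibitory Smad and feedback target, had 3.05, 2.96 and 2.36 in ESCs and 1.84, 1.91 and 2.04 in NPCs. It fell by 0.37 (SE 0.09, adjusted p = 0.0113, limma), but by 0.08 (adjusted p = 0.68) when samples were scaled to an equal sum of RPKM. Smad6, also an inhibitory Smad, went the other way. It was under the filter on RPKM and is named after its values were seen. Smad6 had 0.0532, 0.0640 and 0.0612 span RPKM in ESCs and 0.696, 0.871 and 0.924 in NPCs. On reads, its log2 fold change was 3.79 (limma voom, adjusted p = 2.46e-06, with 2.37e-08 to 5.02e-05 over the alternatives).

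Of the other antagonists, 3 of 13 were tested on RPKM. On recovered reads, 11 could be tested, of which 9 were higher, beside 45.8% of all genes tested, and 1 lower, beside 28.1%. Some of these passed the filter on reads through the NPC samples alone and so had to differ. Fstl1, a follistatin-like glycoprotein that binds BMPs, had 0.948, 0.961 and 0.816 span RPKM in ESCs and 10.2, 9.41 and 9.70 in NPCs. As it passed the filter on RPKM through NPCs alone, its test is that on reads (log2 fold change 3.43, limma voom, adjusted p = 1.26e-06, with 6.43e-12 to 5.4e-05 over the alternatives). Twsg1 also rose. Fst, follistatin, which binds activin and some BMPs, had 3.67, 3.43 and 3.43 in ESCs and 1.25, 1.05 and 1.19 in NPCs, and fell by 1.06 (SE 0.07, adjusted p = 1.7e-05, limma).

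None of the 10 other ligands reached the filter. On recovered reads 5 of them could be tested, and all 5, named here after their values were seen, were called by limma voom. Bmp5, Bmp6, Bmp10 and Gdf2 were higher in NPCs and Bmp8a was lower, but each passed the filter on reads only through the cell type where it is high. Their levels stayed low: Bmp10 had the highest mean of them in NPCs, 1.08 exon RPKM, beside 19.3 for Bmp7. Of the 4 extracellular proteases, 1 passed the filter on RPKM, through NPCs alone: Bmp1, which cleaves chordin, with 0.0161, 0.0136 and 0.0128 span RPKM in ESCs and 2.45, 2.27 and 2.05 in NPCs (on reads, log2 fold change 7.28, limma voom, adjusted p = 7.95e-07, with 3.47e-09 to 4.72e-05 over the alternatives). Htra1, a secreted serine protease named after its values were seen, had 0.231, 0.251 and 0.325 in ESCs and 0.0120, 0.0170 and 0.0150 in NPCs. It was lower on reads (log2 fold change -4.16, limma voom, adjusted p = 9.45e-06, with 1.14e-08 to 0.000165 over the alternatives).

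Of the transcription factor targets, 6 of 8 were tested, of which 4 were called higher and 2 lower. Beside these stand 36.9% and 33.3% of all genes tested. But 5 of the 6 passed the filter through 1 cell type alone. Hey1, a Notch and BMP target, had 0.445, 0.464 and 0.609 span RPKM in ESCs and 31.3, 36.3 and 36.2 in NPCs, the largest rise on the log2 scale of RPKM + 1, though not the largest ratio of means. On reads, the log2 fold change of Hey1 was 6.10 (limma voom, adjusted p = 8.46e-07, with 7.04e-10 to 4.72e-05 over the alternatives). Tfap2c, a factor of trophoblast and germ cells, fell from 6.00, 6.07 and 3.77 to 0.0918, 0.0528 and 0.0926 (on reads, log2 fold change -6.03, limma voom, adjusted p = 8.58e-06, with 5.47e-10 to 0.000154 over the alternatives). Tbx3, which also acts in naive pluripotency, had 14.8, 15.4 and 9.32 in ESCs and 7.12, 7.27 and 6.62 in NPCs. It fell by 0.79 (SE 0.19, adjusted p = 0.00871, limma), but by 0.41 (adjusted p = 0.225) with samples scaled to an equal sum.

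The E proteins that Id proteins bind changed less than Id1, Id2 and Id3 in fold. Tcf3 had 9.78, 10.8 and 8.92 span RPKM in ESCs and 12.7, 15.8 and 15.6 in NPCs, a ratio of means of 1.49 (log2 fold change 0.53, SE 0.12, adjusted p = 0.00774, limma). Tcf12, which passed the filter on RPKM through NPCs alone, rose from 0.173, 0.161 and 0.0774 to 1.33, 1.21 and 1.19 (on reads, log2 fold change 3.27, limma voom, adjusted p = 9.3e-05, with 4.2e-11 to 0.00118 over the alternatives). In exon RPKM, the mean of Tcf3 was 58.8 in ESCs and 87.9 in NPCs, so the summed Id level was below Tcf3 in ESCs and above it in NPCs. These are RNA levels, and the amounts of protein were not measured.

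**Figure D3:**
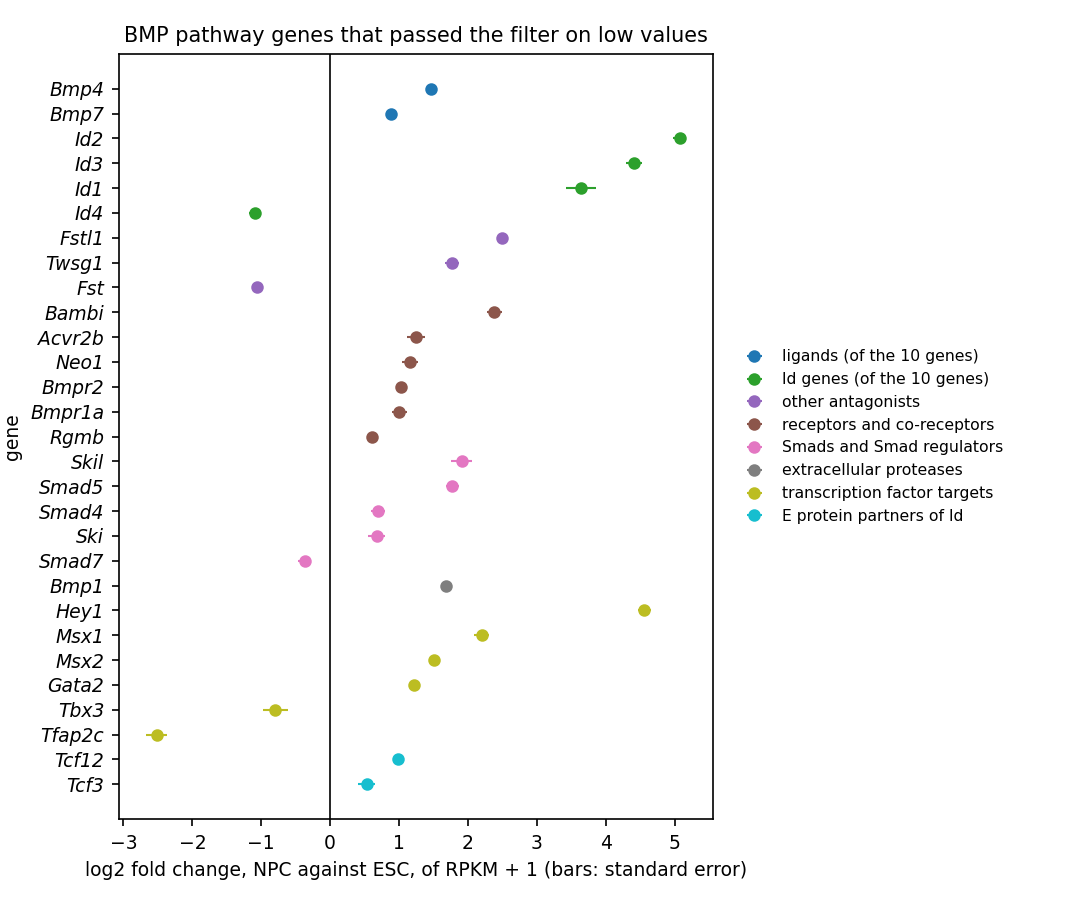
Log2 fold change, NPC against ESC, of span RPKM + 1 for the 6 of 10 genes and the 23 wider pathway genes that passed the filter, ordered by role (dots, with bars of 1 SE from limma). Most lie to the right of 0; Id4, Fst, Smad7, Tbx3 and Tfap2c lie to the left.

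As a description of likeness, the tested gene nearest to each tested member was found by Euclidean distance of log2(span RPKM + 1) over the 6 samples. It was Fsd1 for Bmp4 (distance 0.121), Tmcc2 for Bmp7 (0.0837), Eid1 for Id1 (0.839), Ecm1 for Id2 (0.490), Marcks for Id3 (1.42) and Angptl4 for Id4 (0.232). Ecm1 averaged 0.881 span RPKM in ESCs and 78.2 in NPCs, next to 1.12 and 70.1 for Id2. Marcks, at 5.51 and 78.6, was still well below Id3 in NPCs.

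The position of the genes relative to NADs was compared with the Nucleolar-DamID lists of both cell types. That assay uses the DNA methyltransferase Dam fused to H2B, either with a signal that sends the fusion to nucleoli (H2B-Dam-NoLS) or lacking it (H2B-Dam). Cells of both types made the fusion during 15 h in doxycycline (100 ng/ml), with Shield1 (1 µM) to stabilize it. The lists hold 1769 NADs in ESCs and 1447 in NPCs, with 1 score each for both experiments and no replicate values. Only Gdf6, 1 of the 10 genes, lay in an ESC NAD, beside 27.1% of 21402 placed genes, and 0 of the 10 lay in an NPC NAD, beside 21.6%. The NAD of Gdf6 spans chr4:9399263-10099752 with a score of 0.0202, and in NPCs the nearest NAD was 638 kb away. The other 9 genes were between 93.4 kb (Id2) and 2060 kb (Bmp7) from the nearest ESC NAD. Whether position and RNA level are related was not tested.

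Since Bmp4 rose and Id4 fell, their promoters are shown, with letters that Smads or E-box factors are known to bind. The motifs searched on both strands of the 250 bases before the start were GGCGCC and GTCTAGAC for Smads and the E-box CAGCTG, the E-box CACCTG and the E-box CACGTG. RefSeq (GRCm38.p6) gave windows for 5 of the 10 genes: Bmp4, Chrd, Id2, Id3 and Id4. Over 32851 promoters of this length, GGCGCC occurred in 9.59%, GTCTAGAC in 0.167%, CAGCTG in 13.0%, CACCTG in 17.2% and CACGTG in 6.02%.

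The window of Bmp4 (chr14:46390670-46390919, minus strand) held 1 CACGTG and 1 CACCTG on the other strand, and that of Id4 (chr13:48260866-48261115, plus strand) 1 GGCGCC. The window of Chrd held 1 GGCGCC. The windows of Id2 and Id3 lie inside the gene spans of the annotation used here, after its first base, and are not described. A match describes letters only. Motifs are in capitals and the sequences run 5′ to 3′ up to the start in RefSeq, which for Id4 lies before the first base of the gene given above:
Bmp4: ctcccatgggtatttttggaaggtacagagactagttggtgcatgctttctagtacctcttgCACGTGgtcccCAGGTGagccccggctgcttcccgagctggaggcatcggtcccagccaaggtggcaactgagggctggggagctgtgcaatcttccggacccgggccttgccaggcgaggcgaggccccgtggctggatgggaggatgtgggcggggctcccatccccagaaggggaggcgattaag
Id4: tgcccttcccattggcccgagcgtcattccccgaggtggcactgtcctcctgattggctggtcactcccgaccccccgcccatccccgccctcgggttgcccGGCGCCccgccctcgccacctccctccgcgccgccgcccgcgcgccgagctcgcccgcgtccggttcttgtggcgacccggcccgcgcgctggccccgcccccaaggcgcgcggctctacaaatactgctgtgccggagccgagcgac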

How the data were processed

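The 10 genes and the gene lists were chosen with earlier results of these data known. By the methods of the study, the authors removed rRNA reads, trimmed, aligned to mm10 (GRCm38) with STAR and deposited RPKM per gene; the submitters' processing notes name Bowtie2 2.3.4.3 and Subread 1.4.6-p4. For Nucleolar-DamID, the authors deposited 1 score per domain called in both experiments. Of symbols on several lines (153), the line with the highest mean was kept. Reads were recovered as RPKM times gene span (GENCODE M21): in each sample 96.5% to 97.1% of values up to 20 reads fell within 0.05 of a whole number, against 11.5% to 12.0% with exon length; evenly spread values would give 10%. Exon length is the union over transcripts.

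Genes with RPKM of at least 1 in at least 3 of 6 samples entered a fit of log2(RPKM + 1) by limma 3.58.1 under R 4.3.3 (lmFit, eBayes with trend), with Benjamini-Hochberg adjustment over all genes tested, and called at an adjusted p under 0.05. The reads were tested with voom of limma. The fits were checked on simulated data that held no shift of 1 sample by gene length. That check does not cover the difference seen in ESC replicate 3. Other steps used Python 3.11.15. Named genes of the wider pathway were, per role, the called gene that rose most, the one that fell most, and those with a mean of at least 10 RPKM. Twsg1, Smad6, Htra1 and other ligands were added after their values were seen. Alternatives were other pseudocounts, filters, scalings, prior variance, a block, 2-fold calls, each sample left out, other NAD overlaps and, chosen after seeing the data, exon length and reads.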

Additional observations from a re-analysis of the deposited data

How the results depend on the processing

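The log2 fold change of each of the 10 genes kept its direction and side of the threshold in the 135 values computed. For Bmp4 and Bmp7 on RPKM, and Bmp2, Gdf6 and Nog on reads, the filter had fixed the direction. Nothing is read from their unchanged direction there. The 135 values leave out calls at 2-fold and, for Bmp7, the filter on a mean of at least 1 RPKM, which it did not pass. With each of these, 5 of the 10 genes were called instead of 6. Beside them, 2246 of 7835 genes tested and 4897 genes in all were called, instead of 5500 of 7835. More of the 10 were called where more genes were tested. Without a filter it was 9, beside 11454 of 18360 genes tested. Per kilobase of exon it was 8, beside 8657 of 11905, and on reads 9, beside 10842 of 14657. Nothing is read from these counts. Without each sample in turn, the log2 fold change of RPKM + 1 lay between 1.45 and 1.50 for Bmp4, 0.88 and 0.91 for Bmp7, 3.51 and 3.86 for Id1, 5.01 and 5.12 for Id2, 4.35 and 4.47 for Id3, and -1.17 and -1.04 for Id4. Fitted on reads, it lay between 5.79 and 7.45 for Bmp2, 7.89 and 9.41 for Gdf6, 3.18 and 4.26 for Nog, and 0.11 and 0.39 for Chrd. The summed Id level lay between 4.18 and 4.34, the genes called between 4616 and 6884 (6884 without ESC replicate 3), and the pathway genes called between 22 and 23.

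Of 5500 genes called, the number was 11454 without a filter, where more genes were tested, 2246 with a 2-fold change required, and, in the alternatives chosen after seeing the data, 8657 per kilobase of exon and 10842 on reads, again with more genes tested. The 23 pathway genes called became 51, 37 and 49 without a filter, per kilobase of exon and on reads. They became 16, 19 and 21 with a 2-fold change required, with a mean of at least 1 RPKM and with an equal sum of RPKM. Over all genes, 5270 of 7835 tested were called with an equal sum, and the other settings stand in the paragraph before. Nothing is read from these pathway counts. Scaling to an equal sum moved the median of all tested genes by 0.31 on the log2 scale and median centring by -0.12; with the first, 3658 genes were higher and 1612 lower, against 2894 and 2606. The summed Id level then had a log2 ratio of 4.66 against 4.23; the cause is the scaling itself. Under both scalings Id1, Id2 and Id3 rose and Id4 fell. With NADs at or above the median score, 0 of the 10 genes lay in an ESC NAD instead of 1. Over the 21402 placed genes, the share was 16.5% instead of 27.1%.

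With the replicate number as a block, 5214 genes, 6 of the 10 genes and 23 pathway genes were called. The numbers do not pair the samples: deviations of same-numbered samples correlated at 0.11, -0.08 and 0.03. Differences between replicates exceeded sampling noise in every pair. Depth limits Bmp2, Gdf6 and Nog in ESCs, which rest on 7, 5 and 10 reads in all.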

Other observations

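Further marker lists showed a mixed picture in NPCs. The dorsal roof plate list summed to 0.475 to 0.639 exon RPKM in ESCs and 8.74 to 12.8 in NPCs, with Msx1, itself a BMP target, the most abundant at 6.14; 2 of 6 genes, Msx1 and Zic1, were tested and called higher. Wnt1 and Zic1 of that list were at 0 in ESCs, and Gdf7, a roof plate BMP ligand, averaged 0.108 exon RPKM in ESCs and 0.101 in NPCs. The floor plate list summed to 11.1 to 20.7 exon RPKM in ESCs, mostly Ntn1, and 9.98 to 10.2 in NPCs. Its 1 tested gene, Foxa2, was called higher, and Shh had at most 0.0208 exon RPKM in ESCs and 2.80 to 3.26 in NPCs. Ntn1, not tested at this filter, was lower in every NPC sample, with 0.594, 0.673 and 0.361 span RPKM in ESCs and 0.163, 0.123 and 0.150 in NPCs. The neural crest list summed to 9.36 to 11.4 and 8.27 to 9.14, and in it Foxd3 was called lower and Snai2 higher. The tested genes of these 3 lists passed the filter through 1 cell type alone and so had to differ.

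The neuron list summed to 80.4 to 106 exon RPKM in ESCs, with Stmn2 the most abundant, and to 34.9 to 42.7 in NPCs, with Tubb3 the most abundant; those 2 genes were tested and called lower, Stmn2 having passed the filter through ESCs alone. The other 4 genes of the list, under the filter, were higher in every NPC sample than in any ESC sample: Dcx was at 0 in ESCs and 5.03 to 6.44 exon RPKM in NPCs, and Elavl3 at 0.116 to 0.146 and 3.95 to 4.71. The surface ectoderm list summed to 129 to 213 exon RPKM in ESCs, mostly Cdh1, and to 157 to 164 in NPCs, mostly Krt18. Krt8 and Krt18 rose and Cdh1, which passed through ESCs alone, was lower. Krt5 and Trp63 had at most 0.141 exon RPKM in all samples. The part of these cell types in the BMP and Id results was not tested.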
